A study of Mus musculus with 24 samples.

Results

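The genes described here encode the subunits of the constitutive 26S proteasome, taken as every row of the count table whose symbol begins with Psma, Psmb, Psmc or Psmd and a digit, without the immunoproteasome genes Psmb8, Psmb9 and Psmb10, the thymic gene Psmb11 and pseudogenes. The rule found 36 of 54957 gene rows. RNA of these genes was measured by Smart-seq2, a full-length method for little starting RNA, in 24 libraries of fewer than 400 sorted T cells each, from B16F10-OVA tumours. B16F10 is a mouse melanoma line, here with the model antigen ovalbumin. The 6 groups of 4 libraries were CD8+ T cells after anti-JAML, CD8+ T cells after anti-PD-1, CD8+ T cells after isotype antibody, and CD4+FOXP3+ regulatory T (Treg) cells after anti-JAML, after anti-PD-1 and after isotype antibody. Every mouse carried a tumour and received 200 micrograms of 1 antibody, and tumours were taken 1 day later. The labels name neither the strain nor the age of the mice. JAML belongs to the junctional adhesion molecules and can costimulate T cells, whereas PD-1 restrains T cells that have been activated. Whether each of the 4 libraries in a group stands for its own mouse is not stated, so the p-values reflect only library-to-library spread, part of which may be technical.

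The proteasome degrades proteins that carry a ubiquitin tag. Its 20S core is a barrel whose outer rings, made of alpha subunits, gate the entry, and whose inner rings of beta subunits hold the catalytic sites, on Psmb5, Psmb6 and Psmb7. The 19S regulatory particle caps the barrel: the Psmc ATPases of its base unfold the substrate, and the lid, with the deubiquitinase Psmd14, removes the ubiquitin. In lymphocytes, and in other cells under interferon gamma, Psmb8, Psmb9 and Psmb10 can take the places of the constitutive catalytic subunits in newly built particles, which alters the peptides that are made for presentation on MHC class I.

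Of the 36 rows, 8 encode alpha subunits (Psma1 to Psma8), 7 beta subunits (Psmb1 to Psmb7), 6 ATPases of the 19S base (Psmc1 to Psmc6), 3 other base subunits (Psmd1, Psmd2 and Psmd4) and 8 lid subunits. The rule also took 3 chaperones that help to build the base but are absent from the finished particle (Psmd5, Psmd9 and Psmd10), and Psmc3ip, a factor of meiotic recombination that shares only the symbol. The filter on low counts left 35 rows in every comparison. The row that failed it was Psma8, an alternative alpha subunit of testis, with 195 counts in 3 of 24 libraries. Exons of 10 of the 36 genes overlap another gene, 8 of them on the opposite strand only, and no source used here gives the strand setting of the counting. The microRNA gene Mir686 lies within Psmb5, on its strand. Positions are those of GENCODE M21 on build mm10.

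Stretches of promoter sequence were examined for 29 genes with an entry in the RefSeq promoter table of build GRCm38.p6, over the 250 bases before the start site and on both strands. The antioxidant response element core TGACNNNGC, the kind of element bound by NFE2L1 and NFE2L2, was present in 5 of the 29 promoters (17.2%), against 11.5% of 27025 mouse gene promoters. The CCAAT box was present in 12 (41.4%, against 37.5% of all), and the GC box GGGCGG in 17 (58.6%, against 35.4%). A match is a description of the letters and not of binding. In the windows below, the element is in capitals and the gene's own strand is written 5′ to 3′. The windows are shown for Psmb5, Psmb6 and Psmd12, the 3 of the 5 genes for which values by library are given. They lie at chr14:54618009-54618067 on the minus strand, with the element 38 bases before the RefSeq start site of Psmb5 and the last bases of the window inside the GENCODE model of the gene; at chr11:70525323-70525356 on the plus strand, with the element directly before the start site of Psmb6; and at chr11:107479278-107479314 on the plus strand, with the element on the opposite strand, 238 bases before the start site of Psmd12.
Psmb5: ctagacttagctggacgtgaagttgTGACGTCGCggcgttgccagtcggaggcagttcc
Psmb6: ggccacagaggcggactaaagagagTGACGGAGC
Psmd12: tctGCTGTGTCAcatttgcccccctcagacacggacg

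Libraries held between 11170918 and 22556460 counts. The marker genes were at the levels that the labels call for: Cd8a lay between 1096 and 1898 CPM (counts relative to the TMM-scaled library size) in the CD8 libraries and at 0 to 0.0761 CPM in the Treg libraries, while Foxp3 was at 0 in all CD8 libraries and between 40.6 and 169 CPM in the Treg libraries. The summed level of 10 macrophage and monocyte genes stood apart in some libraries. It reached 455 CPM in CD8 anti-JAML library 2, of which Lyz2 alone was 412 CPM. Each of the others was at most 49.4 CPM in any library of that group. Over the group's 4 libraries together, 9 of the 10 genes had a count and Fcgr1 was at 0. In Treg anti-PD-1 libraries the sum lay between 11.6 and 1188 CPM, highest in libraries 1 and 4. Lyz2 was 866 CPM of the 1188 CPM in library 4, and each of the others was at most 83.9 CPM in any library of that group. A sum of 5 erythroid genes was 1373 CPM in Treg anti-JAML library 4, 694 CPM in Treg anti-PD-1 library 1, 498 and 405 CPM in CD8 anti-JAML libraries 2 and 4, and 276 CPM in CD8 isotype library 3; it was under 10 CPM in the others. A sum of 6 dendritic cell genes was 218 CPM in Treg anti-JAML library 3 and at most 80.0 CPM elsewhere. Cd209a alone was 166 CPM of the 218 CPM. Each of the others was at most 39.5 CPM in any library of that group, and Itgax was at 0 throughout the group. Mitochondrial genes took 6.89% of the counts in CD8 anti-JAML library 4. Every comparison was also computed without each library in turn, and without a set of 5 taken from an earlier analysis of these data: CD8 anti-JAML libraries 2 and 4, Treg isotype library 3, and Treg anti-PD-1 libraries 1 and 4. None of these marker sums stood out in Treg isotype library 3, and the set does not hold Treg anti-JAML libraries 3 and 4. In bulk RNA, fewer cells of a type and less RNA per cell cannot be told apart.

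On the deposited TPM scale, which divides by gene length, transcripts of the core had higher median levels than those of the regulatory particle, with overlap between single genes. The median over genes of the 24-library mean was 581 TPM for 7 alpha subunits, 453 TPM for 7 beta subunits, 339 TPM for the 6 ATPases, 196 TPM for the other base subunits and 220 TPM for the lid. The chaperones had a median of 61.5 TPM, and Psmc3ip 40.2 TPM. Within a sub-complex, whose members stand in equal number in the particle, mean levels were unequal: among beta subunits they ran between 94.6 TPM for Psmb7 and 1521 TPM for Psmb2, among lid subunits between 40.3 TPM for Psmd3 and 357 TPM for Psmd14. The lengths behind these values were the union of all annotated exons, 1204 bases for Psmb2 and 3421 bases for Psmb7, so a long exon of a rare transcript form lowers a gene's TPM.

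**Figure D1:**
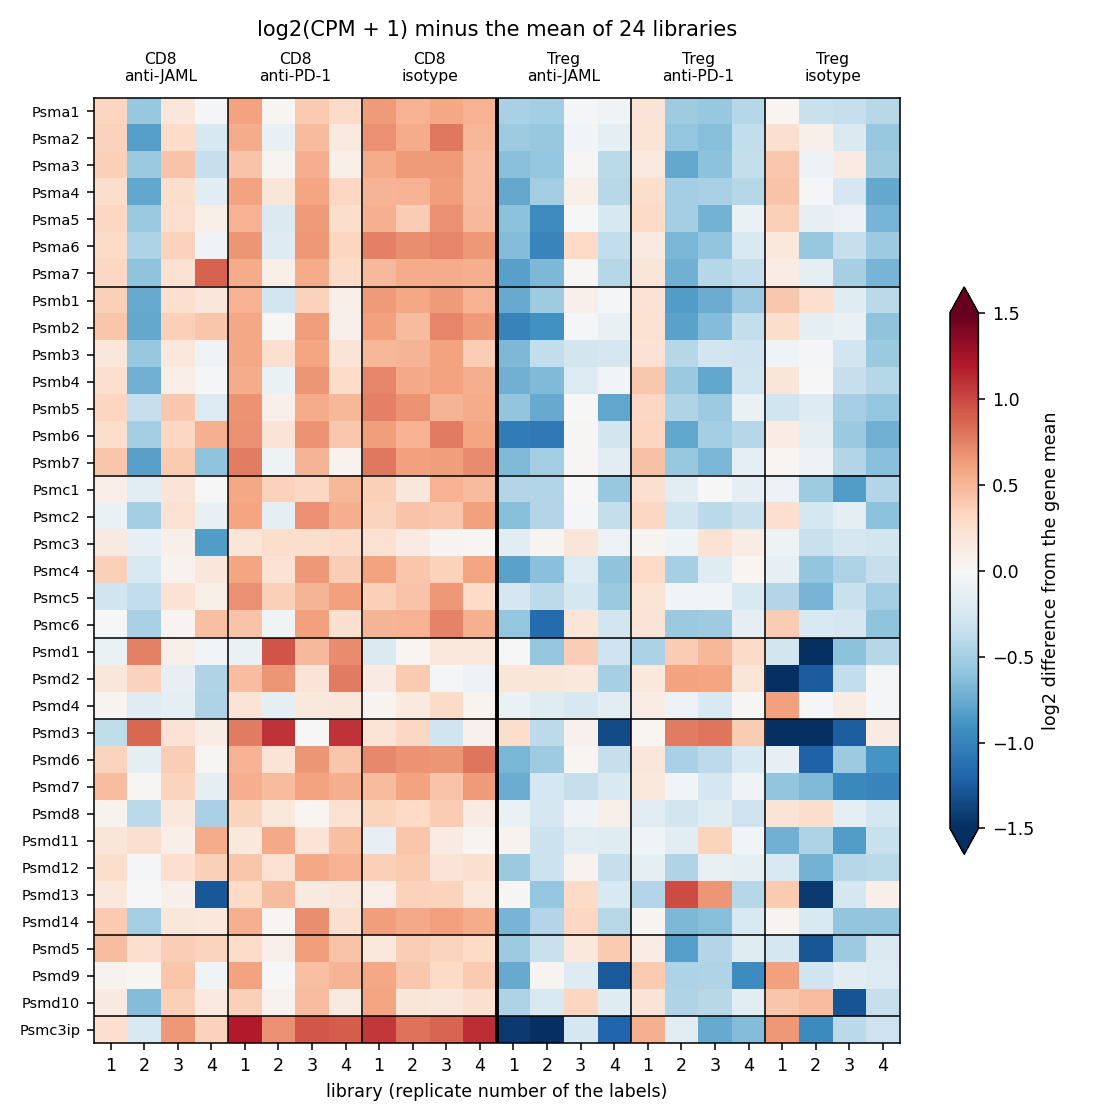
Level of each of the 35 tested genes in each library, as log2(CPM + 1) minus that gene's mean over 24 libraries; rows are grouped, top to bottom, as alpha, beta, ATPase, other base, lid, chaperone genes and Psmc3ip, columns by group with the label's replicate number. The CD8 isotype and CD8 anti-PD-1 columns are mostly red and the Treg columns mostly blue, with CD8 anti-JAML library 2 low for the core genes and Psmd1, Psmd2 and Psmd3 following a pattern of their own.

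CD8 T cells had more proteasome RNA than Treg cells after isotype antibody. Of the 35 genes, 34 had a higher fitted level in CD8 cells and 19 passed the threshold, all of them higher (edgeR quasi-likelihood test, adjusted p under 0.05 over 11680 genes). Over all tested genes, 15.3% passed in either direction and 8.21% passed as higher in CD8 cells. The median log2 fold change was 0.66 for the 35 genes and -0.06 for all genes tested. For 28 of the 35, the lowest CD8 library lay above the highest Treg library, which held for 16.6% of all genes. DESeq2 called 24 of the 35 higher, against 10.4% of all genes, and without Treg isotype library 3 edgeR called 13. Together the 36 genes took 1.56% ± 0.018 of the counts in CD8 isotype libraries and 1.05% ± 0.13 in Treg isotype libraries (SD, n = 4 each).

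All 14 tested genes of the core had a higher fitted level in CD8 than in Treg cells, and 10 of them passed the threshold. Among 7 alpha subunits, 4 passed (Psma1, Psma2, Psma6 and Psma7), and the log2 fold changes of all 7 lay between 0.49 and 0.93. Psma1 had 992, 915, 955 and 914 CPM in CD8 isotype libraries, against 649.8, 508, 504 and 479 CPM in Treg isotype libraries. Every CD8 library was above every Treg library, and Treg library 1 was the nearest. Its log2 fold change was 0.75 ± 0.13 (SE; edgeR adjusted p = 0.00465).

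Of 7 beta subunits, 6 passed, and the exception, Psmb1, had a log2 fold change of 0.47 ± 0.18 (edgeR adjusted p = 0.115). All 3 catalytic genes were among the 6. Psmb5, which carries the chymotrypsin-like activity and lies at chr14:54614119-54618022 on the minus strand, had 278, 262, 234 and 242 CPM in CD8 isotype libraries and 133, 143, 116 and 109.9 CPM in Treg isotype libraries. The groups were far apart, with a 1.93-fold difference (log2 0.95 ± 0.14, edgeR adjusted p = 0.00251). Psmb6, with the caspase-like activity, had 962, 896, 1066 and 943 CPM in the CD8 libraries and 675, 563, 424 and 379 CPM in the Treg libraries. Its groups did not overlap either, and Treg libraries 1 and 2 were above 3 and 4 (log2 0.85 ± 0.19, edgeR adjusted p = 0.0146). Psmb7, with the trypsin-like activity, had 227, 202, 203 and 216 CPM in the CD8 libraries and 134, 124, 96.6 and 84.9 CPM in the Treg libraries. Again every CD8 library was the higher (log2 0.88 ± 0.17, edgeR adjusted p = 0.00944).

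In the 19S base, 3 of 6 ATPases passed: Psmc1, Psmc4 and Psmc5. Psmc5 had 345, 362, 422 and 328 CPM in CD8 isotype libraries and 197, 165, 213 and 187 CPM in Treg isotype libraries. The spread within each group was small beside the gap (log2 0.86 ± 0.13, edgeR adjusted p = 0.00316). Psmc4 had 529, 463, 441 and 523 CPM in the CD8 libraries and 318, 230.1, 251 and 273 CPM in the Treg libraries, with no overlap (log2 0.80 ± 0.14, edgeR adjusted p = 0.00528). None of the 3 other base subunits passed. The scaffold genes Psmd1 and Psmd2 had log2 fold changes of 0.64 ± 0.27 and 0.81 ± 0.41 with wide errors, since Psmd2 ran between 57.4 and 289 CPM over the 4 Treg isotype libraries. Psmd4, a ubiquitin receptor, was the exception in direction, with 266 ± 22.1 CPM in CD8 cells and 277 ± 64.2 CPM in Treg cells (SD, n = 4 each; log2 -0.13 ± 0.17, edgeR adjusted p = 0.695).

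The lid held the gene with the smallest p of the 35. Psmd7, the partner of the deubiquitinase Psmd14, at chr8:107580381-107588464 on the minus strand, had 289.6, 316, 280.0 and 326 CPM in CD8 isotype libraries and 137, 131, 106 and 104 CPM in Treg isotype libraries. The groups were far apart, and the fitted level was 2.41-fold higher (log2 1.27 ± 0.15, edgeR adjusted p = 0.000733). Psmd6, Psmd11, Psmd12 and Psmd14 also passed, with log2 fold changes of 1.28, 0.64, 0.66 and 0.84. Psmd3, Psmd8 and Psmd13 did not. Of the chaperones, Psmd5 passed narrowly (log2 0.75 ± 0.22, edgeR adjusted p = 0.0493), and Psmc3ip did not (log2 1.06 ± 0.35, edgeR adjusted p = 0.0775).

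**Figure D2:**
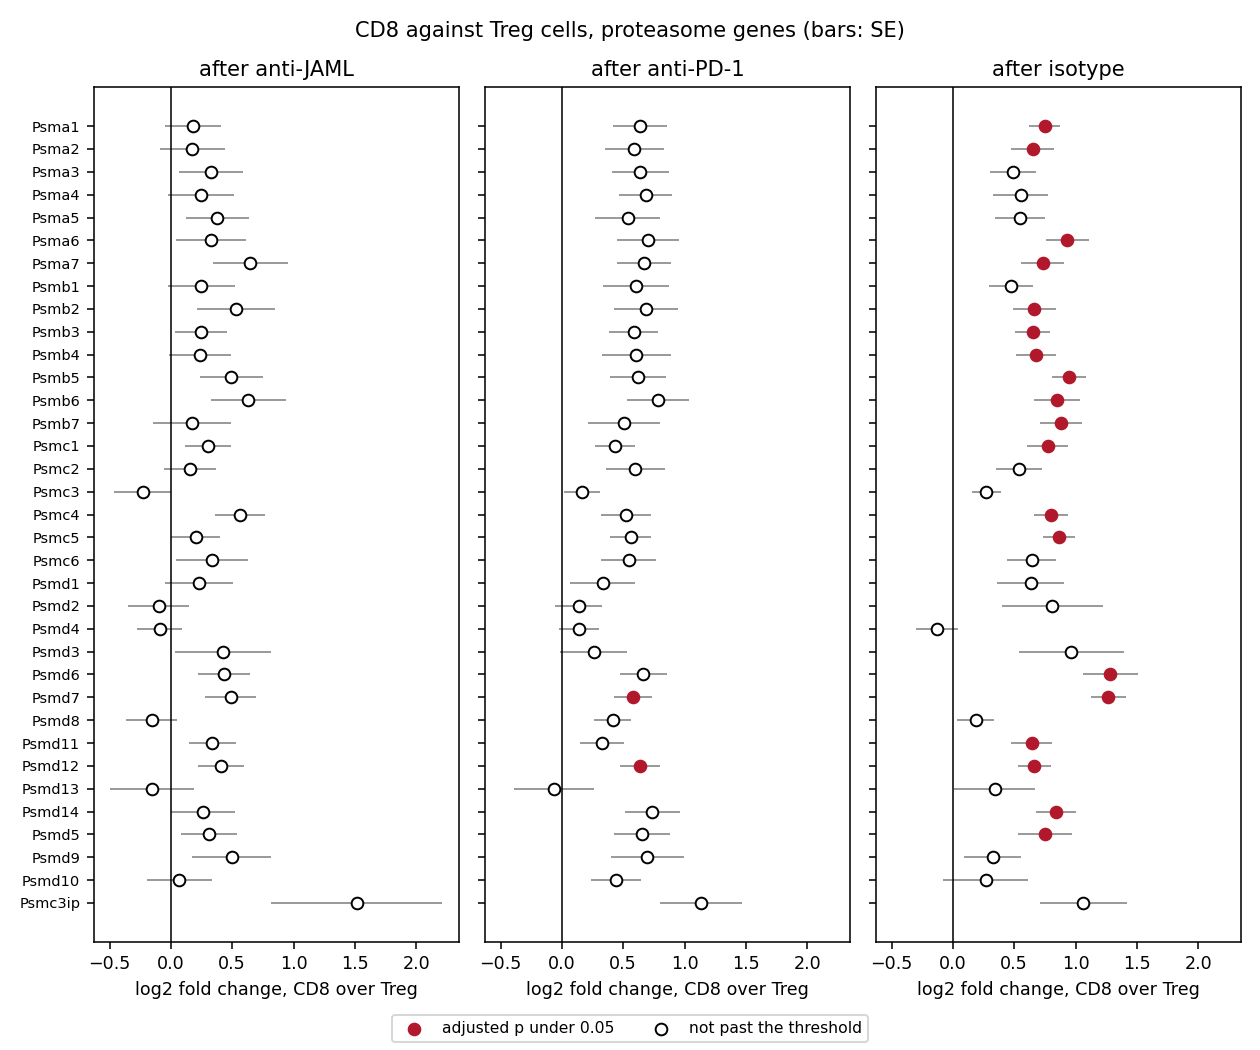
Log2 fold change of CD8 over Treg cells with its SE for 35 genes, after anti-JAML, after anti-PD-1 and after isotype antibody (n = 4 libraries each side); filled points have an edgeR adjusted p under 0.05. There are 0, 2 and 19 filled points in the panels, and most points lie right of 0 in each.

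The 36 genes were set beside lists of genes that work with the proteasome. Of 4 tested proteins bound to the 19S particle, 3 passed as higher in CD8 than in Treg isotype cells. They were the deubiquitinases Uchl5 (log2 1.51 ± 0.22, edgeR adjusted p = 0.00258) and Usp14 (log2 1.03 ± 0.15, edgeR adjusted p = 0.00265), and the ubiquitin receptor Adrm1. Of 5 tested assembly chaperones of the core, Psmg2 passed as higher (log2 1.25 ± 0.20, edgeR adjusted p = 0.00359). Of 5 activators and inhibitors, Psmf1, an inhibitor of the core, and Psme3, a nuclear activator, passed as higher. Their log2 fold changes were 0.95 ± 0.16 and 0.86 ± 0.23. Among 7 regulators of proteasome genes, 0 passed. Of 17 proliferation genes, 13 passed as higher, with a median log2 fold change of 1.34 over the 17. After anti-PD-1, 4 of the 17 passed as higher in CD8 than in Treg cells, with a median of 0.58. After anti-JAML 0 passed, with a median of 0.46. The part of proliferation in the proteasome difference was not tested. After anti-PD-1, Uchl5 and Usp14 were again higher in CD8 cells, by 1.15 ± 0.17 and 1.08 ± 0.17 on the log2 scale. Ngly1, which activates NFE2L1, was the 1 call among 7 regulators (log2 0.68 ± 0.17, edgeR adjusted p = 0.0388).

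The immunoproteasome genes were not called between CD8 and Treg isotype cells. Psmb8, Psmb9 and Psmb10 had log2 fold changes of 0.31 ± 0.14, 0.07 ± 0.11 and 0.02 ± 0.16 (smallest edgeR adjusted p = 0.196). Psmb5 averaged 576 ± 52.2 TPM and its counterpart Psmb8 646 ± 21.2 TPM in CD8 isotype libraries, against 321 ± 30.5 and 559 ± 49.5 TPM in Treg isotype libraries (SD, n = 4 each). Psmb7 averaged 126 ± 9.43 TPM and Psmb10 410.0 ± 24.96 TPM in CD8 isotype libraries, against 73.3 ± 9.02 and 432 ± 45.8 TPM in Treg isotype libraries. The ratio of Psmb10 to Psmb7 lay between 3.12 and 3.40 in the CD8 libraries and between 5.63 and 6.26 in the Treg libraries. On the log2 scale, the immunoproteasome to constitutive ratio was lower in CD8 cells by 0.63 for Psmb8 over Psmb5, 0.82 for Psmb9 over Psmb6 and 0.86 for Psmb10 over Psmb7. Each had p = 0.0286 in a two-sided exact permutation test, the smallest that 4 libraries against 4 allow, and an adjusted p of 0.0964 over the 27 ratios and comparisons tested in this way. Of the 27, 8 had p under 0.05 before adjustment and 0 after it. They included each ratio of CD8 against Treg cells after anti-PD-1, at -0.51, -0.76 and -0.36 in the same order. The rest were Psmb10 over Psmb7 in Treg cells against isotype, at -0.36 after anti-JAML and -0.31 after anti-PD-1. For CD8 against Treg cells after anti-JAML the values were -0.55, -1.05 and -0.20, with exact permutation p of 0.0571, 0.0571 and 0.343. The ratios were chosen after the values had been seen.

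**Figure D3:**
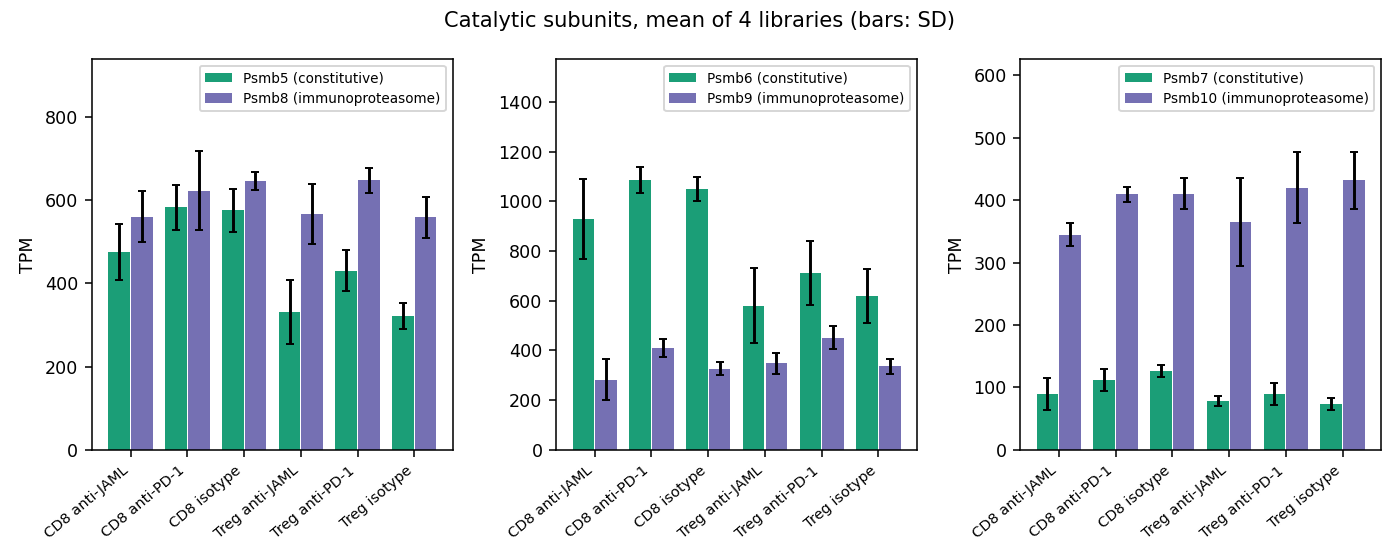
Mean TPM and SD (n = 4 libraries) of each constitutive catalytic gene and of the immunoproteasome gene that can replace it, in the 6 groups; bars start at 0. The constitutive bars are higher in CD8 isotype than in Treg isotype cells, 576 against 321 TPM for Psmb5, while the immunoproteasome bars differ less.

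Over all 6 groups, the mean CPM of each catalytic gene was higher in every CD8 group than in every Treg group. In TPM this did not hold for Psmb7, at 88.8 ± 25.5 in CD8 anti-JAML and 88.9 ± 17.6 in Treg anti-PD-1 libraries (SD, n = 4 each). Psmb5 averaged 174 ± 44.4 CPM in CD8 anti-JAML, 227 ± 38.2 CPM in CD8 anti-PD-1 and 254 ± 19.9 CPM in CD8 isotype libraries, against 116 ± 32.7 CPM in Treg anti-JAML, 147 ± 42.1 CPM in Treg anti-PD-1 and 125 ± 15.2 CPM in Treg isotype libraries (SD, n = 4 each). The CD8 anti-JAML and Treg anti-PD-1 means, neighbours in that order, were closer than their spread. Psmb5 had 262, 173, 242 and 232 CPM in CD8 anti-PD-1 libraries, 204, 119.8, 112 and 153 CPM in Treg anti-PD-1 libraries and 109, 97.1, 165 and 95.2 CPM in Treg anti-JAML libraries. Psmb6 had 1004, 713, 990.3 and 824 CPM in CD8 anti-PD-1 libraries, 781, 363, 435 and 462 CPM in Treg anti-PD-1 libraries and 301, 295, 629.7 and 514 CPM in Treg anti-JAML libraries. In both genes Treg anti-PD-1 library 1 and Treg anti-JAML library 3 were the highest of their groups. Psmb7 had 224, 124, 187 and 136 CPM in CD8 anti-PD-1 libraries, 179, 88.4, 81.3 and 119.9 CPM in Treg anti-PD-1 libraries and 82.6, 90.9, 133 and 117 CPM in Treg anti-JAML libraries, and Treg anti-PD-1 library 1 lay inside the CD8 anti-PD-1 range.

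After anti-PD-1, proteasome genes were again mostly higher in CD8 than in Treg cells, with fewer calls. The median log2 fold change was 0.59 (all genes, -0.05), 34 of 35 genes were positive, and 2 passed the threshold, where 7.83% of all genes passed and 3.63% passed as higher in CD8 cells. At an unadjusted p under 0.05, 24 of the 35 were higher, against 12.1% of all genes, and for 7 the groups did not overlap, against 8.77%. The 2 that passed were the lid genes Psmd12 and Psmd7. Psmd12 had 361, 316, 404 and 389 CPM in CD8 anti-PD-1 libraries and 247, 198, 251 and 247 CPM in Treg anti-PD-1 libraries. Treg library 2 was the lowest and no libraries overlapped (log2 0.63 ± 0.16, edgeR adjusted p = 0.0419). Psmd7 had 303, 289, 317 and 304 CPM in the CD8 libraries and 232, 201, 175 and 199.8 CPM in the Treg libraries, again without overlap (log2 0.58 ± 0.15, edgeR adjusted p = 0.0473). The count of calls rested on single libraries: it was 24 without Treg anti-PD-1 library 1, 1 without CD8 anti-PD-1 library 2, and 0 without any one of the other 6. Treg anti-PD-1 library 1 had the highest mean proteasome level of its group, 8.23 log2 CPM against 7.74 to 7.85 in the other 3, and a macrophage and monocyte sum of 789 CPM. Without Treg anti-PD-1 libraries 1 and 4, 19 genes passed and the median was 0.88. The count of 24 at an unadjusted p under 0.05 was 13 without Treg library 2, 13 without CD8 library 1 and 15 without CD8 library 3. DESeq2 called 12 of the 35, against 7.31% of all genes higher, and limma voom 5, against 4.54%.

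After anti-JAML, no proteasome gene passed between CD8 and Treg cells. The median log2 fold change was 0.30 (all genes, -0.03), with 30 of 35 genes positive and 0 past the threshold, against 2.08% of all genes; DESeq2 and limma voom also called 0. At an unadjusted p under 0.05, 2 genes were higher, where 5.67% of all genes were, and for 3 the groups did not overlap, against 5.08%. The 2 were Psmc4 and Psmd7. Psmc4 had 446, 296, 361 and 392 CPM in CD8 anti-JAML libraries and 198, 225, 300.4 and 228 CPM in Treg anti-JAML libraries. CD8 library 2 lay just below Treg library 3 (log2 0.56 ± 0.20, edgeR adjusted p = 0.248). Psmd7 had 287, 211, 263 and 189 CPM in the CD8 libraries and 124, 173, 164 and 177 CPM in the Treg libraries, with no overlap (log2 0.49 ± 0.21, edgeR adjusted p = 0.361). Single libraries moved these values. The count of genes higher at an unadjusted p under 0.05 was 10 without CD8 library 2, 8 without Treg library 3 and 4 without CD8 library 4, but 1 without CD8 library 3 or Treg library 4, and 0 without CD8 library 1 or Treg library 1. Without CD8 libraries 2 and 4, 13 were, 34 genes were positive, the median was 0.47 and the core median was 0.59, against 0.29 with all libraries. For the catalytic genes the log2 fold changes after anti-JAML were 0.49 ± 0.26 for Psmb5, 0.63 ± 0.30 for Psmb6 and 0.17 ± 0.32 for Psmb7.

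Within CD8 cells, no antibody comparison gave a proteasome gene past the threshold. Anti-JAML against isotype called 0 of 35 (0% of 12648 genes), with limma voom also 0 and DESeq2 0 of the 35. The fitted levels nevertheless lay mostly below isotype: 31 of 35 were negative, with a median of -0.40 (all genes, 0.09). At an unadjusted p under 0.05, 19 were lower, against 4.87% of all genes, and for 18 every anti-JAML library was below every isotype library, against 6.29%. By sub-complex, the 19 were 5 of 7 alpha, 5 of 7 beta, 5 of 6 ATPase and 3 of 8 lid genes, with Psmc3ip. The mean over the 35 genes was 8.28, 7.78, 8.30 and 8.05 log2 CPM in CD8 anti-JAML libraries 1 to 4, and lay between 8.50 and 8.54 in the isotype libraries. The lowest 2 in mean log2 CPM, libraries 2 and 4, are those with the highest erythroid sums of the group. Library 2 also had the highest macrophage sum and library 4 the highest mitochondrial share. The part of these in the result was not tested. The macrophage and monocyte sum ran between 20.97 and 455 CPM after anti-JAML and between 15.2 and 58.8 CPM after isotype. The sum of 3 T cell genes was 2190 CPM in anti-JAML library 2 and between 3987 and 4827 CPM in the rest of that group. After isotype it ran between 4343 and 5293 CPM, and its part was not tested either. Without anti-JAML libraries 2 and 4, 6 genes were lower at an unadjusted p under 0.05 and the median was -0.23. Without library 2 alone these were 11 and -0.29, and without isotype library 3, 12 genes were lower.

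**Figure D4:**
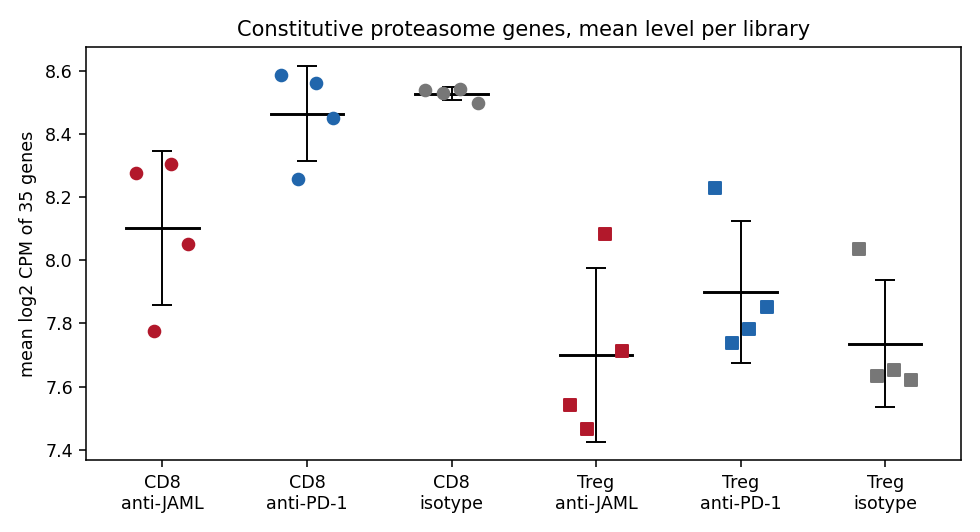
Mean log2 CPM over 35 genes in each of the 24 libraries (points, in order of replicate number), with the mean and SD of 4 libraries per group (lines). CD8 isotype libraries lie within 8.50 to 8.54, CD8 anti-JAML libraries below them at 7.78 to 8.30, and all Treg libraries at 8.23 or lower.

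The 2 genes with the smallest p for anti-JAML against isotype in CD8 cells were Psmd6, a lid subunit, and Psmb4, a non-catalytic beta subunit. Psmd6 had 294, 211, 301 and 236 CPM in anti-JAML libraries and 383, 373, 369 and 407 CPM in isotype libraries. All 4 anti-JAML libraries were lower (log2 -0.52 ± 0.15, edgeR adjusted p = 0.304). Psmb4 had 255, 129.9, 229 and 212 CPM after anti-JAML and 357, 319, 326 and 313 CPM after isotype, with library 2 far below the other 3 (log2 -0.63 ± 0.21, edgeR adjusted p = 0.343). In TPM the spread of Psmb4 was smaller, with 257 ± 20.9 after anti-JAML and 343 ± 19.2 after isotype (SD, n = 4 each). Psmb5 had 206, 129, 217 and 143 CPM after anti-JAML, all below the isotype values given above (log2 -0.51 ± 0.19, edgeR adjusted p = 0.36). Psmb6 had 748, 433, 775 and 904 CPM after anti-JAML, where library 4 reached the isotype range (log2 -0.39 ± 0.20, edgeR adjusted p = 0.471). Psmb7 had 175, 74.2, 172 and 86.2 CPM after anti-JAML, with libraries 2 and 4 lowest and no overlap (log2 -0.70 ± 0.27, edgeR adjusted p = 0.374). The immunoproteasome genes had like values, with a median of -0.46 and 0 calls, and the 17 proliferation genes a median of -0.39 with 0 calls.

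Anti-PD-1 against isotype in CD8 cells also called 0 genes (0% of 12648) by edgeR, and 0 of the 35 by DESeq2 and limma voom. The median was -0.07 (all genes, 0.04), with 13 of 35 positive. At an unadjusted p under 0.05, 3 genes were higher and 0 lower, namely Psmd1, Psmd2 and Psmd3, where 4.06% of all genes were higher. That count was 0 without anti-PD-1 library 2 or 4 or isotype library 3, and 1 without isotype library 1 or 4. Psmd3 had 120.5, 149, 70.0 and 149 CPM in anti-PD-1 libraries and 80.7, 86.9, 56.4 and 72.9 CPM in isotype libraries. Library 3 after anti-PD-1 lay inside the isotype range (log2 0.75 ± 0.29, edgeR adjusted p = 0.865). Psmd2, which binds substrate and shuttle proteins in the base, had 409, 468, 337 and 509 CPM after anti-PD-1 and 322, 387, 292 and 279 CPM after isotype, with overlap (log2 0.46 ± 0.20, edgeR adjusted p = 0.865). The catalytic genes were close to isotype, at -0.14 ± 0.19 for Psmb5, -0.11 ± 0.20 for Psmb6 and -0.32 ± 0.27 for Psmb7.

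Set directly against anti-PD-1, anti-JAML gave lower fitted levels in CD8 cells for 34 of 35 genes. None passed, and 1 of 12648 genes did (0.00791%); limma voom called 0 and DESeq2 called 1 of the 35, where DESeq2 called 0.854% of all genes lower. The median was -0.32 (all genes, 0.02). At an unadjusted p under 0.05, 9 were lower, against 4.89% of all genes, and for 6 the groups did not overlap, against 3.32%. The count of 9 was 5 without anti-PD-1 library 3 and 14 without anti-JAML library 1. It was 4 without anti-JAML libraries 2 and 4, where the core median was -0.08 and the 19S median -0.22. Adjusted for how many genes each library detected, the count was 3 and the median of the 35 genes -0.28. Detected genes numbered 14061.5 ± 550 after anti-JAML and 14840.8 ± 394 after anti-PD-1 (SD, n = 4 each). All 17 proliferation genes were negative, with a median of -0.60 and 0 calls. Of these, 9 were lower at an unadjusted p under 0.05, and their part was not tested. Psmc5 had 218, 208, 311 and 286 CPM after anti-JAML and 433, 345, 382 and 412 CPM after anti-PD-1. The highest anti-JAML library was below the lowest anti-PD-1 library (log2 -0.60 ± 0.16, edgeR adjusted p = 0.207, DESeq2 adjusted p = 0.0485). Psmc3ip, the row that is no subunit, had 31.0, 21.9, 41.2 and 33.1 CPM after anti-JAML and 60.3, 42.3, 50.3 and 49.4 CPM after anti-PD-1, also without overlap (log2 -0.65 ± 0.23, edgeR adjusted p = 0.328).

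In Treg cells after anti-PD-1, genes of the regulatory particle had higher fitted levels on median than under isotype, and genes of the core did not. No gene of the 35 passed the threshold by edgeR (0.0231% of 12981 genes did) or limma voom, and DESeq2 called 5, namely Psmc5, Psmd2, Psmd3, Psmd7 and Psmd11, where DESeq2 called 3.07% of all genes higher. Leaving out Treg isotype library 4 gave 1 call by edgeR. Over 14 core genes the median log2 fold change against isotype was -0.08, and over 17 genes of the 19S particle it was 0.42, while 8 genes were higher at an unadjusted p under 0.05, all 8 in the 19S particle; 8.34% of all genes were higher at that p. Psmd7 had 232, 201, 175 and 199.8 CPM after anti-PD-1 and 137, 131, 106 and 104 CPM after isotype. Every anti-PD-1 library was above every isotype library, and library 1 after anti-PD-1 was the highest (log2 0.75 ± 0.17, edgeR adjusted p = 0.094, DESeq2 adjusted p = 0.000881). Psmd11, a lid subunit, had 202, 188, 267 and 207 CPM after anti-PD-1 and 128, 153, 118 and 168 CPM after isotype, again apart (log2 0.60 ± 0.18, edgeR adjusted p = 0.166). The larger fold changes of Psmd3 (log2 1.47 ± 0.47), Psmd2 (1.15 ± 0.39) and Psmd1 (0.88 ± 0.31) came with wide spread among isotype libraries. Psmd3 was at 71.3, 121, 123 and 91.1 CPM after anti-PD-1 and at 17.9, 22.6, 29.1 and 76.3 CPM after isotype, where library 4 lay within the anti-PD-1 range. The catalytic genes were near 0, at 0.23 ± 0.23 for Psmb5, 0.00 ± 0.29 for Psmb6 and 0.09 ± 0.26 for Psmb7. On the TPM scale, means of the tested core genes were higher after anti-PD-1 than after isotype, except for Psma2, Psma3, Psmb1 and Psmb2. Psmb5 averaged 430 ± 49.7 TPM after anti-PD-1 and 321 ± 30.5 TPM after isotype (SD, n = 4 each). Psmb6 averaged 711 ± 127 and 620 ± 109 TPM, and Psmb7 88.9 ± 17.6 and 73.3 ± 9.02 TPM. The direction for the core thus depended on the scale, and the TPM differences were not tested.

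The split between core and regulatory particle was not tested as a difference, and other measures moved with it. Median gene length was 2335 bases for the core genes and 2820 bases for the 19S genes. Other genes of like length, taken between the quartiles of each set, had medians of -0.04 for the core lengths and 0.12 for the 19S lengths in the same comparison. The number of genes detected was 14720 ± 500.5 after anti-PD-1 and 13264 ± 763 after isotype in Treg libraries (SD, n = 4 each). With that number as a covariate, the medians were 0.38 for the core and 0.37 for the 19S genes, and 4 genes were higher at an unadjusted p under 0.05. The medians still differed without Treg isotype library 3 and Treg anti-PD-1 libraries 1 and 4, at -0.42 and 0.29. The macrophage and monocyte sum had a median of 477 CPM after anti-PD-1 (all 10 genes detected) and 68.8 CPM after isotype (9 of 10, Csf1r at 0), and the sum of 3 T cell genes a median of 3102 CPM after anti-PD-1 and 5955 CPM after isotype. All 17 proliferation genes were positive, with a median of 1.24. The part of these in the split was not tested.

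**Figure D5:**
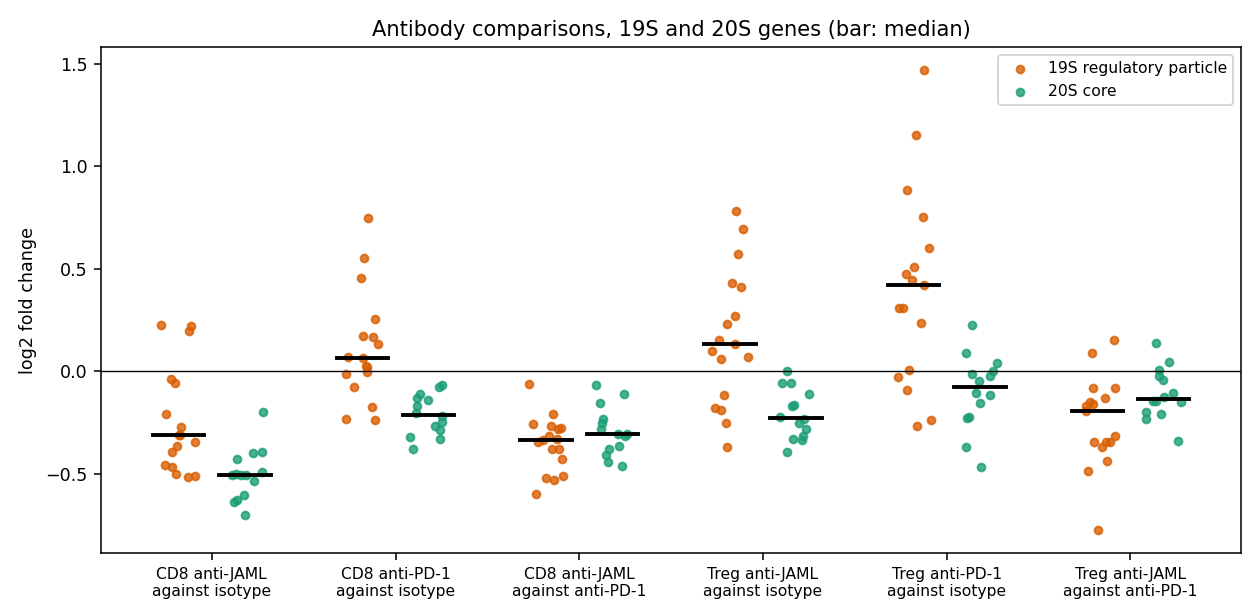
Log2 fold change of each of 17 genes of the 19S regulatory particle and 14 genes of the 20S core in the 6 antibody comparisons (points, spread sideways for legibility), with the median of each set (bars). The bars part in Treg cells after anti-PD-1 (19S 0.42, core -0.08) and lie close together in CD8 cells for anti-JAML against anti-PD-1 (19S -0.34, core -0.31).

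Anti-JAML against isotype in Treg cells called 0 genes (0% of 12981) by edgeR, and 0 of the 35 by DESeq2 and limma voom. The median was -0.11 (all genes, 0.02), and 2 genes were higher and 1 lower at an unadjusted p under 0.05, against 3.63% and 1.76% of all genes. Without isotype library 3 these counts were 0 and 0, without isotype library 4 they were 3 and 2, and over all single libraries left out they ran between 0 and 3 higher and between 0 and 2 lower. The median was -0.02 without isotype library 1 and -0.24 without anti-JAML library 3. The core median was -0.23 with 0 of 14 genes positive, and the 19S median 0.13 with 12 of 17 positive; adjusted for how many genes each library detected, these were 0.15 and 0.16. Psmd7 had 124, 173, 164 and 177 CPM after anti-JAML, against the isotype values above, which 1 anti-JAML library overlapped (log2 0.41 ± 0.17, edgeR adjusted p = 0.853). Psmd11 had 220.3, 169.8, 189 and 187 CPM after anti-JAML, all above the isotype libraries (log2 0.43 ± 0.18, edgeR adjusted p = 0.863). Psmd4 was the gene that was lower (log2 -0.37 ± 0.16, edgeR adjusted p = 0.89). The catalytic genes had log2 fold changes of -0.11 ± 0.23 for Psmb5, -0.23 ± 0.29 for Psmb6 and -0.06 ± 0.26 for Psmb7.

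Anti-JAML against anti-PD-1 in Treg cells called 0 genes (0% of 12981) by edgeR, and 0 of the 35 by DESeq2 and limma voom, with a median of -0.15 (all genes, -0.03), and 2 genes lower at an unadjusted p under 0.05, against 2.80% of all genes. That count was 4 without anti-JAML library 3, 3 without isotype library 4, which enters the shared estimate of spread, and 1 without anti-JAML library 1 or 2 or anti-PD-1 library 2 or 4. It was 0 without anti-JAML library 4, and 0 without anti-PD-1 library 1, where 18 of 35 genes were positive. Psmc4 had 198, 225, 300.4 and 228 CPM after anti-JAML and 427, 245, 305 and 353 CPM after anti-PD-1. The groups overlapped through anti-PD-1 library 2 and anti-JAML library 3 (log2 -0.49 ± 0.19, edgeR adjusted p = 0.775). Psmc5 had 226, 205, 223 and 182 CPM after anti-JAML and 309.7, 261, 261 and 229.6 CPM after anti-PD-1, and here every anti-JAML library was below every anti-PD-1 library (log2 -0.34 ± 0.15, edgeR adjusted p = 0.831).

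Whether an antibody effect differed between the populations was tested as an interaction over all 24 libraries, and 0 of 35 genes passed for either antibody (0% of 14591 genes each). The anti-JAML effect in CD8 cells minus that in Treg cells had a median of -0.38 (all genes, -0.04), with 32 of 35 genes negative and 4 lower at an unadjusted p under 0.05, against 4.50% of all genes. That count was 8 without Treg isotype library 1, and between 3 and 6 without any other library. For Psmd7 it was -0.76 ± 0.22 (edgeR adjusted p = 0.368). The anti-PD-1 effect in CD8 cells minus that in Treg cells had a median of -0.16 (all genes, -0.07), with 27 of 35 negative, 2 lower at an unadjusted p under 0.05, against 4.09% of all genes, and -0.75 ± 0.22 for Psmd7 (edgeR adjusted p = 0.57). DESeq2 called Psmd7 lower in both interactions and none of the other 34 genes, where it called 0.939% and 0.768% of all genes lower, and limma voom called 0. Without the libraries that stand apart, the median was -0.18 for anti-JAML and 0.19 for anti-PD-1. The 17 proliferation genes had a median of -0.68 in the anti-JAML interaction, with 16 negative, and -0.89 in the anti-PD-1 interaction, with 17 negative. In each, 7 of them were lower at an unadjusted p under 0.05 and 0 were called by edgeR. The part of proliferation in these values was not tested. The antibody comparisons within a population share libraries, as do the 2 interactions.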

How the data were processed

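RNA was measured in 24 Smart-seq2 libraries, 4 in each of 6 groups, grouped by the cell type and treatment that the labels give. The authors deposited raw read counts per gene and TPM values per gene. Build mm10 and the tools STAR 2.7.3a, fastp 0.20.1, deepTools 3.3.1 and SAMtools are named, per the submitters' processing notes; a counting program and strand setting are not given there. The deposited TPM values equalled counts divided by gene length. The authors' length was within 1% of the GENCODE M21 union exon length for 6070 of 6070 genes compared. TPM values were used for levels across genes and for catalytic ratios, and, without a test, for some group means of core genes. Counts were tested with edgeR 4.0.16 (R 4.3.3), by robust quasi-likelihood fits with TMM scaling, after keeping genes of at least 10 counts and 15 in total (filterByExpr). The 3 groups of a population were fitted together for antibody comparisons, the 2 groups compared for CD8 against Treg, and all 24 libraries for interactions. P-values were two-sided and adjusted by Benjamini-Hochberg over all genes tested, with a threshold of 0.05. CPM values use TMM-scaled library sizes. DESeq2 1.42.0, limma 3.58.1 (voom), other scalings, no count filter, a replicate block, a covariate for how many genes were detected, and fits without single or doubtful libraries were alternatives. Fits were also run on simulated counts, drawn independently for each gene and library, with no library made to stand apart. That run does not measure how the calls depend on single libraries.

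The 36 genes and the lists were chosen with earlier results of these data known. Values by library are given for 14 genes. For Psmb5, Psmb6 and Psmb7 they cover every library. The others have them for the groups compared, for up to 5 genes past the threshold by smallest p in each comparison. Where none passed, the 2 with the smallest p were taken. Pathway genes were named by the 2 smallest p per list. Other genes named with values were chosen after their values were seen. Totals of 11170918 to 22556460 counts limit precision for low genes only. Fewer than 400 cells per library limit it further, and without molecular identifiers reads cannot be counted as molecules.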

Additional observations from a re-analysis of the deposited data

Results flagged for a closer look

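In groups of 4 libraries, a value was noted where 1 library lay so far from the other 3 that its gap to the nearest, divided by the group's range, exceeded Dixon's critical value at 95%. This held for 3 of 90 groups examined, and chance gives about 1 in 20. Psmd2 was at 209.1 CPM in Treg anti-JAML library 4, below the other 3 libraries, with a gap of 0.972 of the range. Psmd12 was at 197.9 CPM in Treg anti-PD-1 library 2, below the others, with a gap of 0.928 of the range. The mean over the 35 genes was 8.035 log2 CPM in Treg isotype library 1, above the others, with a gap of 0.925 of the range. Causes were not tested.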

How the results depend on the processing

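Of the recomputed counts and medians, 201 stayed within 1.5 times or the spread and 20 moved under other settings; with 1 library left out, 278 stayed and 10 moved. Of the recomputed single genes, 470 kept direction and side of the threshold under other settings, 17 turned, 9 lost and 9 gained a call; with 1 library left out these were 608, 17, 13 and 2. No paired numbers were found: correlations between same-numbered libraries ran between -0.18 and 0.15, and the replicate block gave 16 calls for CD8 against Treg after isotype and 6 after anti-PD-1, with 0 elsewhere.

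For CD8 against Treg after anti-PD-1, the 2 calls became 12 with DESeq2, 5 with limma voom, 1 with RLE scaling, 0 with upper quartile scaling, total counts or no count filter, 6 with the replicate block, 13 with genes detected as covariate, 19 without the libraries that stand apart (median 0.88) and 0 to 24 with 1 library left out (median 0.51 to 0.79). For isotype they ran between 13 and 26 with 1 library left out, and the median was 0.85 with genes detected as covariate. DESeq2 gave 1 call for CD8 anti-JAML against anti-PD-1, 1 in each interaction and 5 for Treg anti-PD-1 against isotype, which had 0 to 1 with 1 library left out. With genes detected as covariate the median was 0.15 for Treg anti-JAML and 0.37 for Treg anti-PD-1 against isotype. Without the libraries that stand apart it was -0.23 for CD8 anti-JAML and -0.31 for Treg anti-PD-1 against isotype, and 0.19 for the anti-PD-1 interaction.

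The catalytic genes changed sign in some comparisons and interactions in which they did not pass the threshold. Without the libraries that stand apart, log2 fold changes were 0.0577 for Psmb7 (CD8 anti-JAML against anti-PD-1), -0.13, -0.41 and -0.41 for Psmb5, Psmb6 and Psmb7 (Treg anti-PD-1 against isotype), 0.10 and 0.30 for Psmb6 and Psmb7 (Treg anti-JAML against anti-PD-1), and 0.29 and 0.0818 for them in the anti-PD-1 interaction. With genes detected as covariate they were 0.11 for Psmb6 (CD8 anti-PD-1 against isotype) and 0.21 and 0.30 for Psmb6 and Psmb7 (Treg anti-JAML against isotype). Psmb7 was 0.00596 there with total counts. For Treg anti-PD-1 against isotype, Psmb6 was -0.0425 with limma voom, -0.10 with upper quartile scaling, -0.0356 with the replicate block and -0.0787 without Treg isotype library 3, and Psmb7 was -0.0016 with upper quartile scaling. With 1 library left out, Psmb6 ran between -0.27 and 0.16 and Psmb7 between -0.18 and 0.21 in that comparison; Psmb7 between -0.17 and 0.0506 for Treg anti-JAML against isotype; Psmb6 between -0.45 and 0.0414 and Psmb7 between -0.26 and 0.13 for Treg anti-JAML against anti-PD-1; Psmb7 between -0.0175 and 0.38 for CD8 against Treg after anti-JAML; and Psmb6 between -0.37 and 0.0266 in the anti-JAML and -0.30 and 0.15 in the anti-PD-1 interaction. Scaling by total counts moved the median of all genes by 0.15 (CD8 anti-JAML against isotype), -0.13 (CD8 against Treg after anti-PD-1) and 0.13 (anti-JAML interaction), where the medians of the 35 genes were -0.29, 0.47 and -0.26. Fits without some libraries show only that a value depends on them, and the cause was not tested for any setting.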
